A study of Drosophila melanogaster with 9 samples.

Results

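The gene expression of the fed, untreated larval midgut of Drosophila melanogaster was ranked from 3 Affymetrix fly arrays, the arrays titled as normal in a series of 9. All 13966 probe sets other than the 44 control probe sets were ordered by their mean signal over these 3 arrays, and 10844 genes were represented by a probe set annotated to 1 gene. The larvae were of the white-eyed strain w1118. The other groups of the series, 3 arrays each, were larvae labelled 108 h old (one as 108 to 110 h) that then ate 1% wheat germ agglutinin for 12 h or were starved for 12 h, and they were not compared here. The control larvae were in the third instar and labelled 120 h old. The labels call them normal with 12 h, and no control diet is described, so "fed" stands for neither lectin nor starvation. Each array held RNA from a pool of 50 dissected midguts, which the labels call a biological replicate.

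The larval midgut is a tube of absorptive enterocytes that secrete digestive enzymes into the lumen and take up amino acids, sugars, lipids and metals through a brush border. A peritrophic matrix of chitin and mucin-like proteins separates food from the epithelium. Among the enterocytes lie copper cells, which acidify the lumen, iron cells, hormone-secreting enteroendocrine cells and nests of progenitors, and a sheath of visceral muscle surrounds the tube.

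The signal was concentrated in few probe sets. The 140 probe sets of the top 1%, called dominant here, held 47.6%, 45.7% and 48.7% of the summed signal on replicates 1, 2 and 3. The 1257 probe sets from there to the top 10%, called high, held a further 40.4%, 41.6% and 37.9%. The brightest 152, 166 and 145 probe sets of the arrays together reached 50% of their signal. The signals are the authors' deposited values on a linear scale, with no unit of mRNA amount. The brightness of a probe set depends on its probes as well as on its transcript, so every order given below is an order of signal.

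The background level was set at a mean signal of 9.64, the 95th percentile of the 54 probe sets for odorant receptors, which act in olfactory neurons. Above it and below the top 10% lay 4320 moderate probe sets, and 8249 probe sets, 59.1% of all, lay near background. The moderate probe sets held 9.25%, 10.1% and 10.3% of the signal on the 3 arrays, and those near background held 2.71%, 2.65% and 3.08%. By gene, 99 genes were dominant, 1051 high, 3699 moderate and 5995 near background. A probe set near background was not distinguishable from those of olfactory receptor genes, which does not show that its transcript was absent. Such probe sets have no usable order, so a lowest member named below that lies near background is only the lowest mean.

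**Figure D1:**
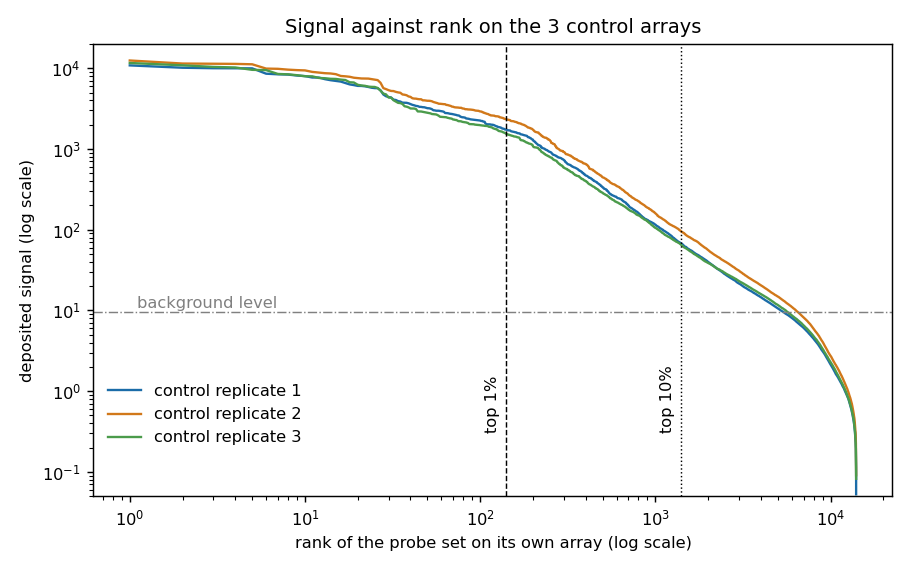
Deposited signal of every probe set against its rank on its own array, both on log scales, with 1 line for each of the 3 control arrays. The dashed and dotted vertical lines mark the top 1% (140 probe sets) and the top 10% (1397 probe sets), and the horizontal line marks the background level of 9.64. Replicate 2 lies above the other lines over most ranks.

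The 3 arrays differed in overall brightness. Summed signals were 1032246, 1344614 and 960935 on replicates 1, 2 and 3. Pearson correlations of log2 signals between pairs of arrays were 0.92 to 0.93 across 13966 probe sets, which are not independent replicates. Spearman rank correlations were 0.831 to 0.855 over the same probe sets and 0.854 to 0.897 over those above background. Pairs of arrays shared 114 to 127 of their 140 brightest probe sets, and 113 probe sets were in the top 1% of every array. The RNA quality ratios, 3 prime over 5 prime probe sets, were 1.44 to 2.36 for actin, 1.97 to 2.92 for GAPDH and 3.60 to 5.71 for eIF-4a.

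Of the 30 genes of highest mean signal, 18 encode proteases, peptidases or lysozymes, families of enzymes secreted into the gut lumen. They were 12 serine proteases, 5 lysozymes and 1 carboxypeptidase. The other 12 included 3 ribosomal proteins, 2 intracellular lipid-binding proteins, a metallothionein, a chitin-binding protein and the CAP family protein Ag5r2. For the remaining 4, CG12057, CG10910, CG3868 and CG11151, no role is given here. In such pooled tissue, fewer cells of a type and less RNA per cell cannot be told apart.

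Jon66Ci, a chymotrypsin-like serine protease of the Jonah family, was the highest gene, with signals of 10858, 12490.3 and 10397 on replicates 1, 2 and 3. Jon99Fii, of the same family, had 10156, 11337 and 9489. MtnA, a metallothionein that binds copper and other metals in the cytosol, had 10016, 11205 and 9562. In the deposited values of all these genes replicate 2 was highest and replicate 3 lowest, as in the arrays' summed signals. The order depended on scaling. After scaling the arrays to the same trimmed mean, 8 of 14 Jonah proteases were lowest on replicate 2 and 8 highest on replicate 3. With quantile normalisation 4 were lowest on replicate 2 and 3 highest on replicate 3.

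Next in order came the proteases Jon25Biii with a mean of 8975 ± 757 (SD, n = 3, as for all means below), Jon65Ai with 8664 ± 1086 and CG18180 with 8410.2 ± 539, and the lysozyme LysB with 8380 ± 970. Ag5r2, related to the antigen 5 of wasp venom, had 8417, 9413 and 7154. The serine proteases yip7, CG10472, CG17571 and CG11911 had means of 7470 ± 1399, 6880 ± 900.0, 6836 ± 1081 and 6628 ± 869.8. CG17633, a carboxypeptidase that removes amino acids from the ends of peptides, had 5976, 7846 and 6122.

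Lipid-binding and less-known genes followed. Acbp5, an acyl-CoA-binding protein, averaged 6257 ± 826, and fabp, a fatty acid-binding protein of the cytosol, had 6049, 7471 and 4861. CG7290, with chitin-binding domains, averaged 4372 ± 858. CG12057 averaged 6285 ± 760, CG3868 4185 ± 645 and CG11151 3893 ± 1033. CG10910 differed from its neighbours in the order in which its arrays fell, with 2980, 5024 and 5869, lowest on replicate 1 and highest on replicate 3.

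The order within the 30 was only partly resolved by 3 arrays. Of the 29 pairs of neighbours in this order, 5 kept their order on all 3 arrays, while 362 of all 435 pairs (83.2%) did. The last of the 30 genes, RpS26, had rank 40 among the probe sets. The probe sets of ranks 2, 3, 13, 23 and 38 were annotated to 2 genes each and those of ranks 6, 17, 31, 34 and 36 to none. They carry no gene name here and are not among the 30. The threshold of the top 1% fell in a flat stretch: RpL27 (1932) and CG11912 (1902) were the last named genes inside it, and ATPsynO (1894) and Fer2LCH (1884) the first outside.

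**Figure D2:**
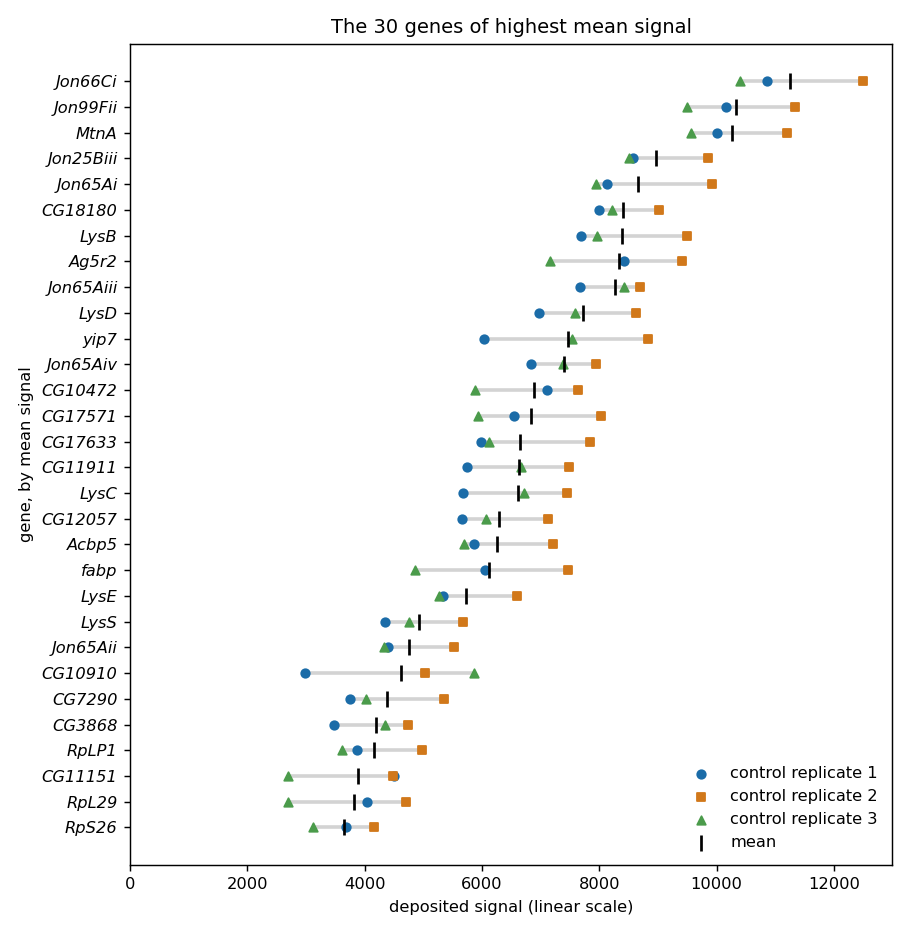
Deposited signal (linear scale) of the 30 genes of highest mean signal, ordered from top to bottom by that mean. Each symbol is 1 of the 3 control arrays, the black tick is the mean and the grey line spans the arrays. Replicate 2 is highest for most genes, and CG10910 has a wide range, from 2980 to 5869.

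Of the 14 Jonah proteases with a probe set of their own, 11 were dominant and 3 high, with a median percentile of 99.7 among all probe sets, against 54.0 for all genes. Their share of the summed signal was 6.60%, 6.02% and 6.93% on the 3 arrays. Jon65Aiii averaged 8260 ± 526, Jon65Aiv 7390 ± 555 and Jon65Aii 4750.3 ± 666. The lowest was Jon25Bi, with 363, 322 and 130, lowest on replicate 3. Jonah genes are alike in sequence and their transcripts can bind each other's probes, so the value of a single member is uncertain.

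The trypsins, which cut after basic residues, lay lower: 6 of 10 were high, 2 moderate and 2 near background, with a median percentile of 94.8. zetaTry was the highest, with 1015, 1242 and 720. kappaTry had 966, 861 and 544, iotaTry averaged 447 ± 90.4 and etaTry 438 ± 103. betaTry, fixed as an enterocyte marker, had only 3.70, 17.1 and 5.06, and lambdaTry, the lowest, averaged 7.61 ± 3.70. The other enterocyte markers measured, Jon65Aiii, mesh and LManI, lay above background, LManI with a mean of 25.03 ± 4.7.

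Other peptidases were uneven. Among 23 exopeptidases and other peptidases of the brush border, 4 were dominant, 6 high, 2 moderate and 11 near background, with a median percentile of 67.2. Besides CG17633 these were the carboxypeptidases CG8562 (2713, 3297 and 2169) and CG8560 (1789, 3011 and 2207) and the aminopeptidase CG8773 (1483, 2729 and 1764). The lowest, CG12374, averaged 1.91 ± 0.38. Among 12 cathepsins and aspartic proteases, acid-active enzymes, 1 was dominant, 6 high and 5 near background. The aspartic protease CG33128 averaged 2432 ± 637, cathepsin B (CtsB) 1780 ± 348, Bace 1491 ± 573 and cathepsin D (cathD) 590.3 ± 159, while CG10104 averaged 0.78 ± 0.15.

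Lysozymes, which cut bacterial cell walls and act in digestion in flies, fell into 2 sets. LysB, LysD, LysC, LysE and LysS were dominant, and LysX and LysP were moderate. LysD had 6965, 8622 and 7588, LysC 5677, 7450.2 and 6710.2, LysE 5331, 6596 and 5268, and LysS 4343, 5676 and 4748. LysX had 24.3, 45.2 and 45.7, and LysP 5.90, 24.5 and 4.54. The dominant and moderate sets did not overlap on any array. Because the sets were defined by the mean of these same arrays, this is not separate evidence for a split. LysP was moderate by its mean but lay above the background level on replicate 2 only. LysB, LysC, LysD and LysE are near-identical copies that can share probes, so their separate values are uncertain. Together the 7 lysozymes held 2.91%, 2.82% and 3.36% of the signal.

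Carbohydrate-digesting enzymes ranged over all bands. Amy-d, an amylase that cuts starch, had 1703, 2765 and 1390 and was dominant, and the amylase-related Amyrel had 118, 236 and 96.5. Of 10 maltases, 4 were high, 3 moderate and 3 near background. Mal-A3 had 1621, 1566 and 568, Mal-A4 1236, 1336 and 733, Mal-A2 263, 339 and 155, and Mal-A1 112, 232 and 137. The lowest, Mal-B1, had 1.06, 0.62 and 0.42, and Mal-B2 averaged 1.79 ± 0.48. Of 6 lysosomal-type alpha-mannosidases, which trim mannose from glycans, LManVI (3022 ± 818) and LManV (2560 ± 961) were dominant, LManII (351 ± 120) and LManIII (268 ± 148) high, and LManIV, the lowest at 14.6 ± 2.2, was moderate.

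Lipases split by family. Of 11 pancreatic-type lipases, 1 was dominant, 6 high, 1 moderate and 3 near background. CG6283 had 1971, 3736 and 2791, CG6295 1111, 1997 and 2319, CG6277 753, 1416 and 782, and CG6296 332, 745 and 525, each lowest on replicate 1. CG6847 was the lowest, at 2.83 ± 2.55. Of 16 acid lipases, 12 were near background and the median percentile was 30.9, below that of all genes. Within that list mag (magro), a gut lipase, was dominant with 1582, 2799 and 3172, while CG2772 averaged 731 ± 162, Lip4 146 ± 27.1, Lip3 14.5 ± 9.1 and CG17097 1.098 ± 0.56.

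**Figure D3:**
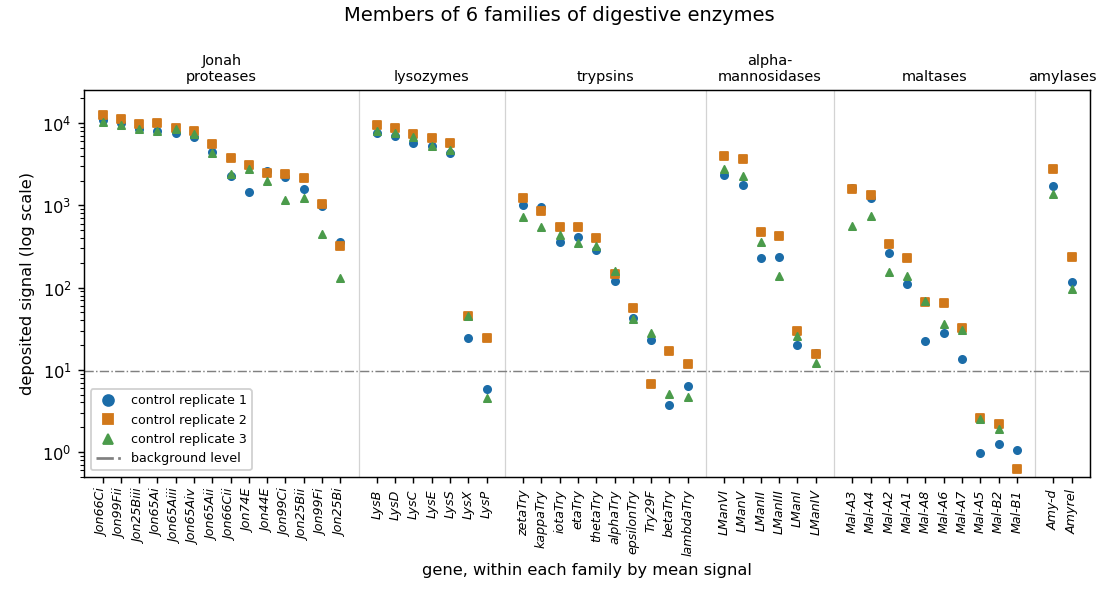
Deposited signal (log scale) of every member of 6 families of digestive enzymes that had a probe set of its own, ordered within each family by mean signal. Each symbol is 1 of the 3 control arrays and the dashed horizontal line is the background level of 9.64. All 14 Jonah proteases lie above 100, whereas lysozymes, trypsins, alpha-mannosidases and maltases spread more widely.

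Peritrophins and mucins, which form the barrier between food and epithelium, were closer to the average gene. Of 23 peritrophins and mucins, 2 were dominant, 3 high, 8 moderate and 10 near background, with a median percentile of 62.7. Muc55B, a mucin, had 1960, 5102 and 3728, and Peritrophin-15a, a chitin-binding protein, had 3328, 3273 and 1705. Muc18B averaged 843 ± 272 and Peritrophin-15b had 870.2, 371 and 190.1. Muc68D was the lowest at 0.53 ± 0.32. These members did not share an order of arrays: Muc55B was lowest and Peritrophin-15b highest on replicate 1.

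Among 22 enzymes that make, cut or deacetylate chitin, 2 were high, 7 moderate and 13 near background. The chitinase Cht9 had 323, 404 and 190, and the chitinase-like growth factors Idgf4 and Idgf3 averaged 78.8 ± 38.2 and 38.6 ± 18.3. Cda9, a deacetylase, had 72.2, 10.9 and 21.7, and Cht7 averaged 1.05 ± 0.35. Of 15 junction genes, the 3 components of smooth septate junctions were the highest: Ssk with 465, 662 and 345, mesh with 181, 367 and 256, and Tsp2A with 233, 280.5 and 206. alpha-Cat, of adherens junctions, averaged 28.0 ± 11.1 and dlg1, the lowest, 1.07 ± 0.08. Of 16 genes of the brush border and cytoskeleton, 10 were high, 5 moderate and 1 near background, led by the actin regulators tsr, a cofilin, at 1767 ± 566 and chic, a profilin, at 634 ± 151. Mlc-c, a myosin light chain, averaged 348 ± 120 and the tubulin betaTub56D 333 ± 62.7, and qua, a villin-like protein, was lowest at 2.79 ± 2.30.

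Listed genes of mitochondrial energy metabolism were bright almost throughout, after paralogs of respiratory chain and ATP synthase subunits were set apart. Of 55 nuclear-encoded subunits of the respiratory chain and ATP synthase, 7 were dominant and 46 high, with a median percentile of 97.6, and the list held 5.29%, 4.95% and 3.92% of the signal on replicates 1, 2 and 3. The complex III subunit ox had 3397, 3606 and 1997. Of cytochrome oxidase, COX5B had 3195, 3507 and 2035, COX5A 2959, 3258 and 1886, and cype 2330, 3410.1 and 2057. In each of these genes replicate 3 was lowest. The remaining members, COX7C with 1.11, 0.96 and 0.27 and ND-B8 with 15.3, 1.55 and 5.92, were near background.

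The 14 paralogs of these subunits carry like names and were split off by gene name after the data were seen. Of these 14, 5 were moderate and 9 near background, so the share of bright members above depends on this split. The list of vacuolar ATPase subunits below was not split in this way. ATPsynbetaL averaged 31.4 ± 18.5, ND-B14.5AL 22.8 ± 5.7, ND-51L2 11.6 ± 2.8 and ND-51L1 10.4 ± 4.7, and COX6AL2 was lowest at 0.55 ± 0.30. All 12 members of the tricarboxylic acid cycle list, which was not limited to mitochondrial enzymes, were high. They ran from Mdh1 (1837, 2080.4 and 1429), Idh (943 ± 183), SdhB (672 ± 234, also counted in the respiratory chain) and mAcon1 (626 ± 206) down to ScsbetaG (84.3 ± 25.2). Of 12 fatty acid oxidation genes, 9 were high and 3 moderate, led by Acox3 (1093 ± 195), Echs1 (917 ± 177), yip2 (448 ± 107) and scu (443 ± 150). whd, the carnitine palmitoyltransferase, had 1.05, 8.92 and 20.9.

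Of 15 genes of glycolysis and gluconeogenesis, 10 were high, 4 moderate and 1 near background. Pepck1, of gluconeogenesis, averaged 947 ± 154, Gapdh1 785 ± 249, Eno 586 ± 182 and Gpdh1 585 ± 88.8, and the hexokinase Hex-C was lowest at 0.68 ± 0.26. Of 25 genes for lipid synthesis and handling, fabp was dominant, 8 were high, 14 moderate and 2 near background. The sterol-binding Npc2e had 1718, 2211 and 1565, Npc2f averaged 649.9 ± 107 and Npc2c 624 ± 188, while the fatty acid synthase FASN2 averaged 1.94 ± 0.16. Of 6 genes that buffer or carry ATP, the arginine kinase Argk1 (2152 ± 660), the channel porin (1300.4 ± 464) and the ADP/ATP carrier sesB (1270.4 ± 410) were dominant or high, and Adk3 (10.7 ± 1.9) and Adk1 (2.28 ± 1.11) were lowest among those named.

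Cytosolic ribosomal proteins were mostly dominant. Of 27 with a probe set of their own, 22 were dominant, 4 high and 1 moderate. Their median percentile was 99.4, against 99.7 for Jonah proteases and 94.8 for trypsins. These 27 alone held 6.16%, 6.04% and 5.73% of the signal, and any ribosomal protein without a probe set of its own is not in this share. RpLP1 had 3870, 4976 and 3614, RpL29 4046, 4699 and 2695, and RpS26 3681, 4159 and 3124. RpLP2 averaged 3474 ± 975, and the lowest was RpS29 at 53.2 ± 14.6. The 7 paralogs of ribosomal proteins were likewise split off after the data were seen. They were 2 moderate, RpS5b (32.2 ± 5.5) and RpL37-2 (24.9 ± 7.3), and 5 near background, down to RpL10Aa at 1.13 ± 0.87.

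Mitochondrial ribosomal proteins formed a lower and narrow group. Of 64, 7 were high, 56 moderate and 1 near background, with a median percentile of 84.4 and a median signal of 39.2. mRpS7 had 159, 134 and 84.2, mRpL28 124, 142 and 81.6, mRpL51 143, 132 and 68.2, and mRpS16 136, 131 and 69.0, and mRpL43 was lowest at 4.09 ± 1.23. All of the 4 highest were lowest on replicate 3.

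Genes of translation, folding and protein turnover were mostly high. The helicase eIF4A averaged 1281 ± 449 and eEF5 755 ± 178, with eEF1gamma at 671 ± 172 and eEF1delta at 107 ± 28.4, and eEF1alpha2, the lowest of the 5 factors, was near background at 8.15 ± 5.47. All 26 proteasome subunits lay above background, 23 high and 3 moderate, from Prosbeta4 (413 ± 53.3), Prosbeta7 (382 ± 101), Prosalpha2 (323 ± 117) and Prosbeta5 (302 ± 83.5) down to Rpn2 (33.04 ± 7.5). Of 12 chaperones and translocon subunits of the endoplasmic reticulum list, 11 were high, led by Sec61alpha (719 ± 145), Sec61beta (707 ± 263), Hsc70-4 (677 ± 232), which is mainly cytosolic, and Pdi (592 ± 156), and Sil1 was lowest at 9.32 ± 3.65. The 8 subunits of the CCT chaperonin, which folds actin and tubulin, were 4 high and 4 moderate, from CCT6 (171 ± 49.3), CCT2 (161 ± 83.4), CCT1 (101 ± 39.3) and CCT5 (82.9 ± 34.2) to CCT3 (26.2 ± 7.7).

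Heat shock proteins and tRNA charging enzymes were lower. Of 10 heat shock genes, 2 were high, 3 moderate and 5 near background. Hsp60A (140 ± 61.8, a mitochondrial chaperonin by its known location), Droj2 (129 ± 22.1), Hsc70-5 (55.8 ± 33.4, also mitochondrial) and DnaJ-1 (32.1 ± 5.5) were highest and Hsc70-1 lowest (1.118 ± 1.18). Of 16 aminoacyl-tRNA synthetases, 13 were moderate, 1 high and 2 near background. TyrRS averaged 83.9 ± 9.8, SerRS 72.3 ± 25.3, AsnRS 71.9 ± 15.0, GlyRS 59.8 ± 24.1 and CysRS, the lowest, 7.53 ± 1.80.

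Proton pumps and metal-binding proteins had members in the dominant band. Of 29 vacuolar ATPase subunits, which pump protons across membranes, 2 were dominant, 13 high, 4 moderate and 10 near background. Vha16-1, of the membrane ring, had 2891, 3157 and 2030.4, and Vha26 had 2172, 3036 and 1905. Vha13 averaged 1867 ± 503 and VhaM9.7-b 1814 ± 464. The lowest was Vha68-3 at 0.58 ± 0.27. Paralogs of a subunit, named after their values were seen, differed in some cases. Vha36-1 averaged 1117, Vha36-3 13.8 and Vha36-2 1.66, whereas Vha100-5 (415), Vha100-2 (317) and Vha100-4 (227) were all high and Vha100-1 (29.9) moderate.

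Metal-binding genes were led by MtnA and by the ferritin chains Fer1HCH (2793, 3347 and 3171) and Fer2LCH (1512, 2206 and 1932), with the metallothionein MtnB at 1573 ± 237 and the transferrin-like Tsf3 lowest at 4.09 ± 3.12. These genes and Vha100-4 (166, 296 and 218), a subunit of copper cells, also made up much of the list for copper and iron cells, where 2 of 13 members were dominant, 7 high, 2 moderate and 2 near background, down to Best2 (3.50 ± 1.29). Of 34 nutrient transporters, 4 were high, 18 moderate and 12 near background. The copper importer Ctr1B had 806, 494 and 298, the phosphate transporter Picot 265, 510.1 and 243, the amino acid transporter slif 106, 203 and 149, and MFS14 103, 202 and 80.0, while mnd averaged 1.97 ± 2.33.

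Detoxification families had members both in the top 10% and near background. Of 85 cytochromes P450, which oxidise toxins, hormones and lipids, none was dominant, 20 were high, 26 moderate and 39 near background, with a median percentile of 69.2. Cyp9f2 had 974, 1418 and 1268, Cyp6d5 631, 1631 and 1279, Cyp9b2 767, 1274 and 1171, and Cyp4d1 806, 844 and 572, and Cyp316a1 was lowest at 0.28 ± 0.05. Their share of the signal was 0.65%, 0.82% and 0.92%. Of 35 glutathione S-transferases, which conjugate toxins to glutathione, 1 was dominant, 16 high, 11 moderate and 7 near background. GstD1 had 2583, 3242 and 1926, Mgstl 1065, 1353 and 872, GstE3 averaged 619 ± 134 and GstE5 432 ± 103, and GstO1 was lowest at 0.72 ± 0.62.

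Of 33 UDP-glycosyltransferases, 9 were high, 10 moderate and 14 near background, with Ugt302C1 (233 ± 19.96), Ugt303A1 (232 ± 84.8), Ugt37D1 (177 ± 47.9) and Ugt49B1 (172 ± 67.3) highest and Ugt37C1 lowest (1.61 ± 0.24). Of 11 antioxidant genes, 8 were high, 1 moderate and 2 near background. Catalase (Cat) had 780, 1175 and 667, thioredoxin reductase (Trxr1) averaged 484 ± 155, the mitochondrial superoxide dismutase Sod2 360 ± 124 and Gclm, of glutathione synthesis, 311 ± 98.2, with Prx1 lowest at 4.24 ± 1.83.

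Regulatory genes were mostly moderate or near background. Of 30 transcription factors of the midgut, 1 was high, 10 moderate and 19 near background. sug (sugarbabe), a zinc finger factor known to respond to dietary sugar, had 87.3, 142 and 166, cad (caudal), a homeobox factor of the posterior gut, 40.9, 87.5 and 51.6, the lipid-sensing receptor Hnf4 31.3, 54.9 and 43.3, and GATAe, a regulator of endoderm genes, 21.4, 41.6 and 26.3. exex (25.9) and bap (20.9) followed, and Dr was lowest at 0.58 ± 0.30. The progenitor factor esg averaged 4.43 ± 4.28 and the enteroendocrine factor pros 6.37 ± 0.60, both near background. Of 17 nuclear receptors and ecdysone response genes, 4 were moderate, ImpL2 (30.8 ± 14.7), ERR (17.1 ± 1.5), Hr96 (15.9 ± 7.4) and br (11.6 ± 6.8), and 13 near background, with usp (6.44) and ImpE1 (6.02) next and ftz-f1 lowest (0.61 ± 0.19).

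Among signalling genes, 7 of 12 in the insulin and TOR list and 10 of 15 in the list for progenitors and renewal were moderate and the rest near background. REPTOR-BP averaged 54.9 ± 10.4, the kinase S6k 43.7 ± 10.9, the adaptor chico 21.4 ± 7.0, Akt 14.7 ± 6.6, raptor 13.1 and gig 12.1, and the receptor InR was lowest at 1.39 ± 0.55. Stat92E, the factor of JAK-STAT signalling, had 45.1, 82.5 and 64.2. The phosphatase puc averaged 35.4 ± 15.2, the kinase bsk 34.7 ± 3.3, the receptor tkv 24.97 ± 5.2, the Notch targets E(spl)m3-HLH 18.6 and E(spl)mbeta-HLH 13.4, and the ligand upd2, the lowest, 0.66 ± 0.17.

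The brightest immune gene encodes an enzyme that degrades peptidoglycan, the bacterial cell wall polymer. Of 13 genes of peptidoglycan recognition and the IMD pathway, the amidase PGRP-SC2 was dominant with 2391, 3165 and 2913. pirk, an inhibitor of the pathway, averaged 106 ± 26.9 and the amidase PGRP-LB 97.2 ± 16.1. The sensor PGRP-LE (65.3 ± 20.2), PGRP-LA (32.3) and the factor Rel (25.9) were moderate, and PGRP-LF was lowest at 1.38 ± 0.99. Of 10 antimicrobial peptides, AttD was high with 91.0, 126 and 57.2, DptB (22.8 ± 4.7) and Mtk (11.9 ± 8.5) were moderate and 7 were near background, from Anp (7.66 ± 3.98), Drsl5 (7.54) and Drsl6 (6.80) to Def (1.58 ± 0.64).

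Of 16 genes of enteroendocrine cells, 1 was high, 7 moderate and 8 near background. The peptide hormone gene AstC had 85.4, 93.2 and 55.0, CCHa2 50.4, 39.8 and 38.3, and Dh31 24.0, 39.9 and 23.1, and Pal2, an enzyme of peptide amidation, averaged 30.2 ± 12.5. NPF and Mip, 2 further peptide genes, averaged 2.99 ± 1.09 and 4.13 ± 4.63, and CCAP was lowest at 0.89 ± 0.25.

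**Figure D4:**
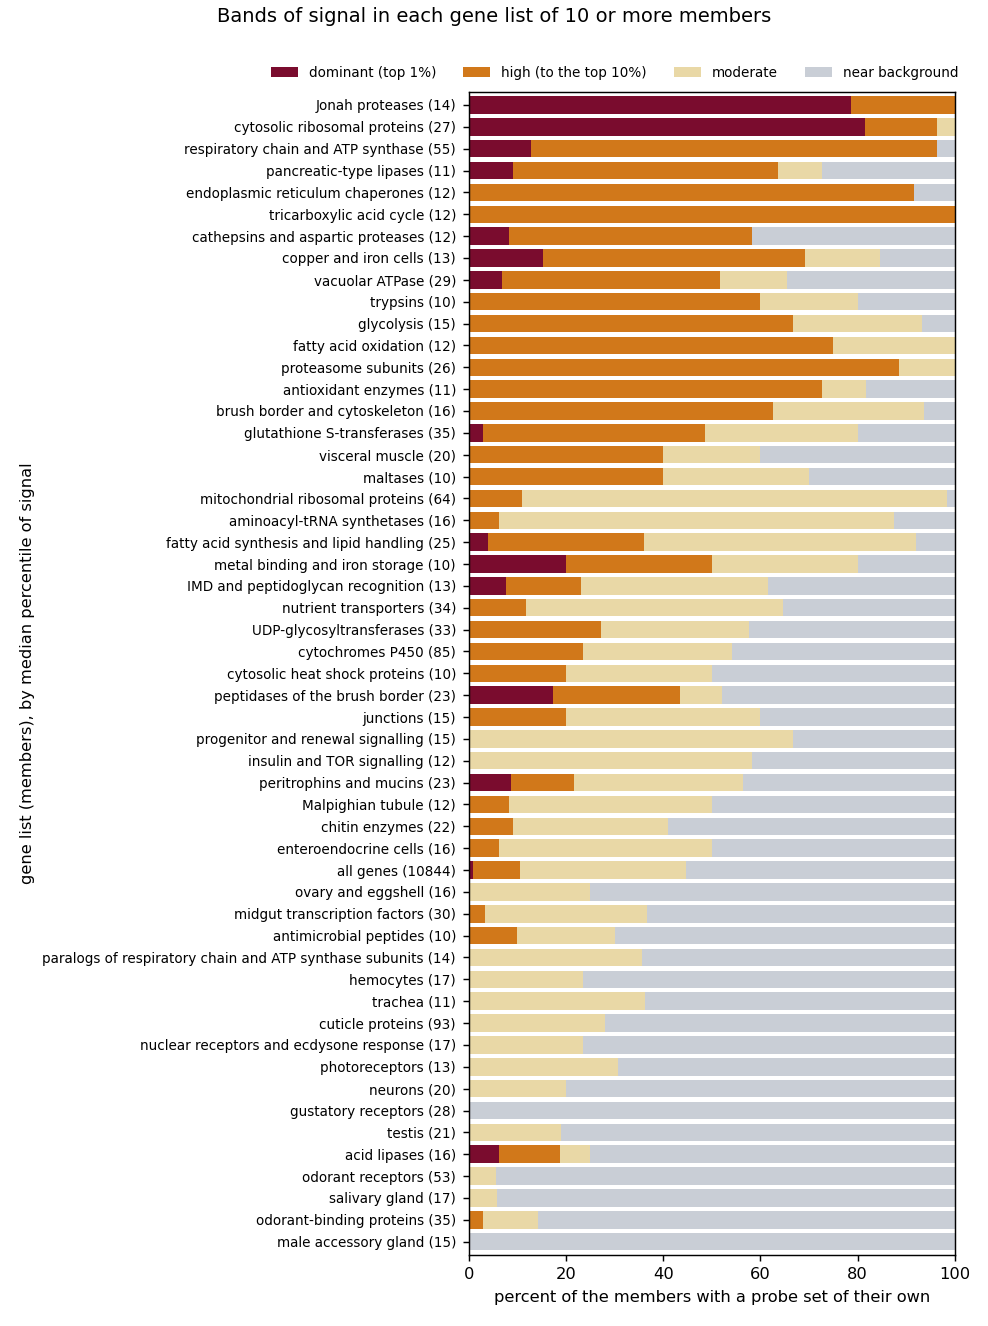
Percent of the members of each gene list that were dominant, high, moderate or near background, for lists of 10 or more members and for all genes, with the number of members in brackets. Lists run from the highest median percentile at the top to the lowest at the bottom. Jonah proteases, cytosolic ribosomal proteins and respiratory chain genes lie at the top. Acid lipases, odorant receptors, salivary gland genes, odorant-binding proteins and accessory gland genes lie at the bottom, with 15 of 15 accessory gland genes near background.

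Marker genes of other tissues, pooled over lists, were mostly near background. Over 13 such lists, without visceral muscle and without the odorant receptors that set the background level, 241 of 307 genes (78.5%) were near background, 62 moderate and 4 high, with a median signal of 3.93, against 55.3% of all genes near background. No test of this difference was made. The 5 highest were Obp99b (185, 206 and 138), an odorant-binding protein, Alp4 (91.0, 205 and 86.7), an alkaline phosphatase of Malpighian tubules, Fbp2 (144, 137 and 42.6), a fat body protein, Lsp2 (76.5, 95.02 and 117), a storage protein of the fat body, and Ccp84Ae (64.3, 78.9 and 63.4), a cuticle protein. Fbp2 was lowest on replicate 3 and Lsp2 highest there. The summed share of the 9 fat body genes was 0.028%, 0.025% and 0.024% of the signal.

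Defining markers of salivary gland, blood cells and neurons were low. Sgs3, Sgs5 and Sgs7, glue proteins of the salivary gland, averaged 3.93 ± 1.93, 2.87 ± 1.82 and 2.09 ± 0.22, while Sgs8 averaged 25.5 ± 4.0. Hml, NimC1 and Pxn of hemocytes averaged 5.55 ± 4.37, 1.62 ± 0.66 and 3.51 ± 2.89, and elav, nSyb and brp of neurons 3.82 ± 1.04, 2.89 ± 2.53 and 2.98 ± 1.24. Members above background in these lists were SPARC (39.9 ± 12.1) and crq (27.5 ± 6.0) of hemocytes and Ace (24.2 ± 1.7) and Appl (20.2 ± 2.0) of neurons, among others.

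Gustatory receptor genes and genes of the reproductive organs gave few signals above background. All 28 gustatory receptors were near background, the highest being Gr98d at 8.84 ± 2.32, as were all 15 accessory gland genes, the highest being SP at 7.81 ± 1.64. Of 53 odorant receptors, which set the background level, Or22c (13.5 ± 9.9), Or2a (12.3 ± 3.0) and Or46a (11.6 ± 8.8) lay above it. Of 93 cuticle proteins, 67 were near background. The highest of 21 testis genes was Mst84Dd (32.3 ± 11.6), of 16 ovary and eggshell genes Vm26Aa (29.2 ± 9.1), of 11 tracheal genes verm (22.7 ± 7.5) and of 13 photoreceptor genes eys (16.5 ± 6.8).

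Muscle genes lay higher than the other marker lists. Of 20 genes in the visceral muscle list, 8 were high, 4 moderate and 8 near background, with a median percentile of 87.2. The myosin light chain Mlc2 had 1611, 1604 and 1200.1. Mp20 had 721, 849 and 445, Act87E averaged 671 ± 111, Mlc1 279 ± 77.4, the troponin up 113 ± 55.2 and the paramyosin gene Prm 65.2 ± 23.6, and TpnC4 was lowest at 0.50 ± 0.28.

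Dominant genes outside these lists were largely without an established name. Of the 99 dominant genes, 34 were in none of the lists, and 25 of these 34 carry only a CG number. The lists were chosen by gene name, and the share of such numbers among all unlisted genes is not given, so nothing is read from this count. Genes with only a CG number made up 31.3% of dominant, 32.4% of high, 37.5% of moderate and 45.6% of near-background genes, against 41.4% of all genes. The median gene span in the RefSeq annotation (Release 6 plus ISO1 MT), introns included, was 1099 bp for dominant, 2029 bp for high, 2606 bp for moderate and 2384 bp for near-background genes, against 2385 bp for all genes. A further 34 dominant probe sets had no gene in the annotation and 7 had several.

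Some high genes lay next to each other in the order of protein-coding genes of that annotation. Of the 99 dominant genes, 17 (17.2%) stood beside another dominant gene, in 6 runs. The longest runs had 4 genes, CG8997, CG7916, CG7953 and CG7968, and Jon65Aiv, Jon65Aiii, Jon65Aii and Jon65Ai, and the others were LysB, LysD and LysE, CG11912 and CG11911, Jon66Ci and Jon66Cii, and LManV and LManVI. CG8997 averaged 3544 ± 407, CG7916 3499 ± 572, CG7968 2873 ± 905 and CG7953 2414 ± 426. Of the 1150 dominant or high genes, 339 (29.5%) lay in 146 such runs. Probe sets of neighbouring copies can share sequence, so the members of a run are not independent. The share of neighbours to be found by chance was not computed, so nothing is read from these counts.

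The longest run of dominant or high genes held 7, CG7298, CG7290, CG6996, CG7017, CG6933, CG17145 and CG17147. Its means ran from 126 ± 17.5 for CG6996 to 4372 ± 858 for CG7290. Other runs of 5 were kappaTry, zetaTry, etaTry, thetaTry and alphaTry; GstE5 to GstE9; and CG5084, CG10910, CG5773, CG5770 and CG5767. Of the dominant genes, 28.6% were on arm 3L and 24.5% on arm 2L, against 19.5% and 18.3% of all genes.

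Probe sets of the same gene often differed in band. Of 1209 genes with several probe sets, 648 had their brightest probe set above background, and in 488 of these (75.3%) the dimmest was near background. The median ratio of brightest to dimmest was 5.80.

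The spread between arrays was smallest for the brightest genes. After scaling the 3 arrays to the same trimmed mean, the median SD of log2 signals was 0.17 for dominant, 0.24 for high, 0.34 for moderate and 0.51 for near-background probe sets. Among high and dominant genes RpS15 (2000.2, 2721 and 1865), Polr2L (102, 137 and 94.3) and CG11699 (245, 335 and 231) varied least after scaling, with SDs of 0.005, 0.010 and 0.012 on the log2 scale. Of 1150 such genes, 9 had an SD over 1.

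The 10 most variable genes above background were CG13324, bbg, CG14657, lark, CG14721, CG13159, Nplp2, CG5084, whd and PolE2, with SDs of 1.62 to 1.91 on the log2 scale. Only Nplp2 and CG5084 were high. Nplp2, a neuropeptide-like precursor, had 588, 659 and 66.8, low on replicate 3. CG5084 had 1063, 179 and 148, high on replicate 1. Of the others, CG13324 had 21.2, 39.3 and 1.17, bbg 2.38, 35.9 and 35.2, lark, an RNA-binding protein, 38.0, 7.30 and 58.0, and PolE2, of DNA polymerase epsilon, 3.24, 4.05 and 27.9.

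Among the 20 most variable genes of the top 10%, chosen after their values were seen, 13 were highest on replicate 1 after scaling. Of all 1150 dominant or high genes, 472 (41.0%) were highest there. The 13 included CG34282 with 2286, 757 and 419, CG10725 with 439, 102 and 70.8, CG14300 with 746, 273 and 152, CG7017 with 298, 95.3 and 82.6, and Peritrophin-15b. CG10725, CG14300 and CG7017 carry chitin-binding domains. On replicate 3, 5 of the 20 were highest, against 387 of the 1150 (33.7%). These 5 included CG6770 with 320.2, 808 and 1056 and CG5770 with 150, 451 and 461.

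Whole groups of genes also shifted together between the pools. After scaling, 47 of 63 mitochondrial ribosomal protein genes above background, 47 of 53 respiratory chain and ATP synthase genes and all 8 CCT chaperonin genes were lowest on replicate 3. The same held for 1547 of all 4849 genes above background (31.9%) and for 531 of 1150 dominant or high genes (46.2%). The median deviations of the 3 groups on replicate 3 from the mean of the arrays were -0.35, -0.28 and -0.36 on the log2 scale. On replicate 1 they were 0.31, 0.26 and 0.34. With quantile normalisation in place of scaling, 52, 41 and 8 were lowest on replicate 3. The matching counts were 1835 of the 4849 genes and 483 of the 1150. Cytochromes P450 ran the other way, with 31 of 46 (67.4%) lowest on replicate 1, against 41.9% of the 4849 genes, and median deviations of -0.25 on replicate 1 and 0.24 on replicate 3. UDP-glycosyltransferases had -0.26 and 0.22, and 8 pancreatic-type lipases had -0.33 and 0.26, with 6 of the 8 lowest on replicate 1. The 4 acid lipases above background had -0.29 and 0.37. All genes above background had -0.05 and 0.07.

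Some other bright groups shifted less. Median deviations were within 0.07 for cytosolic ribosomal proteins and within 0.02 for proteasome subunits on every array. Members of the tricarboxylic acid cycle list had -0.04, 0.12 and -0.09. The RNA quality ratio of eIF-4a was 4.16, 5.71 and 3.60 on replicates 1, 2 and 3 and that of GAPDH 1.97, 2.70 and 2.92, and their part in these shifts was not tested. The labels give no batch or date, so pools and array runs cannot be told apart.

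**Figure D5:**
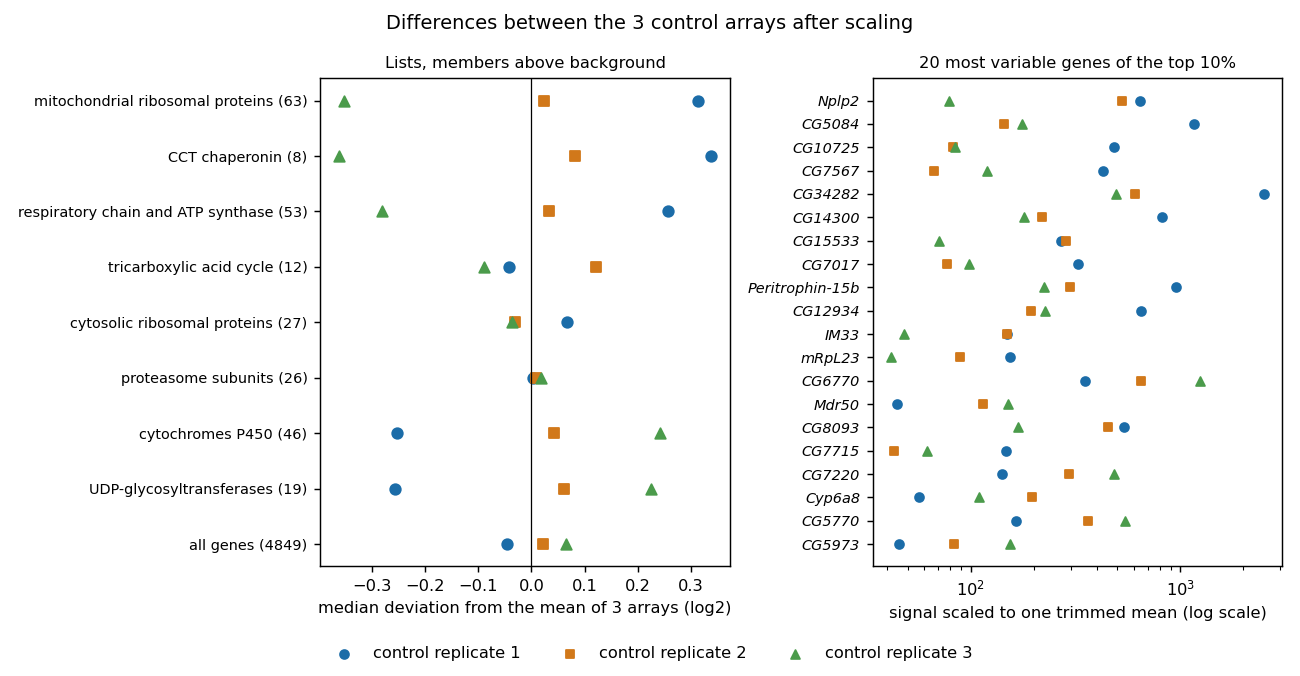
Left, the median deviation of each gene list from the mean of the 3 control arrays, on the log2 scale after scaling to one trimmed mean, over members above background (number in brackets). Right, the scaled signals (log scale) of the 20 most variable genes of the top 10%. Each symbol is 1 array: mitochondrial ribosomal, CCT and respiratory chain genes are low on replicate 3, cytochromes P450 are low on replicate 1, and most of the variable genes are high on replicate 1.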

How the data were processed

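The 3 control arrays were analysed, each of RNA from 50 pooled midguts. The deposited table gives the authors' signal intensities on a linear scale, from 0.053 to 12490.3 in these arrays. The submitters' processing notes name GCOS, the Affymetrix software, without a version, and say nothing of the algorithm or of a scaling target. Detection calls were not analysed here, and the 6 columns of the treated arrays served only for 1 alternative background level.

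Probe sets were ranked by the mean of the deposited intensities. In the platform annotation 12443 probe sets had a single gene, of which 12394 were found in a RefSeq table of symbols, while 327 had several genes and 1196 had none. Where a gene had several probe sets the brightest stood for it. Dominant means the top 1%, high the rest of the top 10%, and near background a mean at or below 9.64. A percentile is a place among 13966 probe sets. Spread is the SD of log2(signal + 1.53) after scaling to the same trimmed mean, leaving out 2% at each end. The offset is the 20th percentile of the control signals. The arrays' number, 3, limits the precision, and whether the replicates also differ in array handling is not stated.

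No contrast was tested, so no p-value is given. The ranking steps were run on simulated signals with the same spread for all probe sets and no shifts between arrays. That run does not measure the precision of the real ranking. Python 3.11.15, pandas 2.3.3 and Matplotlib 3.10.9 were used. The members and the 60 gene lists were chosen with earlier results of these data known, 20 wrong entries were removed by gene identity, and 2 lists of paralogs were added after seeing the data. Listed genes measured by no probe set, or by shared ones alone, were left out. Named were the 30 highest genes, the 4 highest and the lowest member of most lists (up to 6 for regulators), the 10 most variable genes, the 5 highest of other tissues and 2 genes on either side of the top 1%. Genes named outside this rule were chosen after their values were seen. Protein and promoter sequences were not used here.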

Additional observations from a re-analysis of the deposited data

How the results depend on the processing

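The count near background depended on the level chosen. It was 8249 with the 95th percentile of odorant receptors and 5338 with their 75th percentile. The other levels, the scaled arrays and the highest array in place of the mean gave 5887 to 9486, among them 6213 with the highest mouse or yeast control probe set, which was added after seeing the data. Leaving out each array in turn gave 8391 to 8733. The share held by the top 1% was 45.8% to 47.4% under other settings and 46.6% to 48.2% with each array left out in turn. Of the 140 dominant probe sets, 139 or all were kept under another scaling and 134 to 137 with an array left out. A top 0.5% held 70 of them, and a top 2% held 279 probe sets, since the choice sets the number. Of the 60 lists, 20 had a median percentile over 90 in the main setting and with each array left out in turn, and 17 had one with the median probe set of each gene. That choice lowered 23 medians beyond the spread between arrays, 8 of them by over 10 points. Leaving out probe sets whose suffix marks shared sequence, as for LysB, LysC, LysD and LysE, moved 8 medians, 2 of them by over 10 points, with the largest fall at -15.5. Single variable genes were less firm: of the 10 most variable, 5 stayed among the first 10 with the deposited scaling, 4 with an offset of 10, 7 with an offset of 1 and 8 with quantile normalisation. The cause of these shifts was not tested. No paired analysis was possible because no groups were compared. Depth is not known for arrays, and the 8249 probe sets near background have no usable order.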
